A study of Mus musculus with 1 sample.

Results

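The genes described here are those of fibroblast growth factor (FGF) signalling named for FGF9: the ligand genes Fgf9, Fgf10 and Fgf7, the receptor genes Fgfr1, Fgfr2, Fgfr3 and Fgfr4, and the feedback genes Spry1, Spry2 and Spry4. They were taken by symbol from the gene list of the control library, and all 10 were found, each on 1 row, among 22631 features.

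The data are RNA counts of single cells from 1 library of dissociated fetal mouse testes, labelled WT and embryonic day 14.5, while the study's text gives embryonic days 13.5 and 14.5 for its cell suspensions. Per the study's methods the controls carried loxP-flanked Nr5a1 alleles (L2/L2) without the AMH-cre transgene and without the YFP reporter, on a mixed C57BL/6 and 129/SvPass background, and the labels give 12 controls as pooled. The library made for a deletion of Nr5a1 in Sertoli cells (SCs) was not analysed here. With 1 library there is no replicate, so no test was run and no p-value is given.

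A library of this kind counts unique molecular identifiers (UMIs), 1 for each captured RNA molecule, near the 3′ end of the transcript, so the splice forms of a receptor cannot be told apart. After filtering, 3823 cells with 54814380 UMIs were kept, with a median of 12078 UMIs and a range of 2266 to 53807. The level of a gene in a class of cells is its summed UMIs per 1000000 UMIs of the class (CPM). The ranges in parentheses are exact 95% intervals, by the Poisson distribution for levels, by Clopper and Pearson for shares of cells, and conditional on the total for ratios. Where a class had no UMI, a floor of 3 UMIs or cells over the class is given beside the exact limit. All of these cover counting error only, since cells of 1 library are not replicates. Levels are compared between classes for 1 gene at a time, not between genes.

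Cells were grouped without using any FGF gene as a variable gene, and groups were named from marker lists. The 11 named classes include 1155 interstitial-like, 852 Sertoli-like, 528 peritubular myoid-like (PTM-like), 320 Leydig-like, 251 germ-like, 145 coelomic epithelium-like and 104 perivascular-like cells, and 19 rete testis-like cells. The remaining named classes, erythroid-like, immune-like and endothelial-like, held 37, 35 and 17 cells. A further 360 cells stayed unnamed. Sertoli-like cells were well set apart, with all 11 SC markers in at least 25% of cells and 7 of them, Amh and Dhh included, among the 10 leading genes. Interstitial-like cells were less so: the larger of their clusters passed the naming limit of 1 with a mean log2 ratio of 1.01 over its markers, and the same markers reached a median of 102.5% of the interstitial-like level in PTM-like cells, 60.9% in coelomic epithelium-like cells and 42.4% in perivascular-like cells. In Sertoli-like and germ-like cells they stood at a median of 0.811% and 0.955% of that level. PTM-like cells had 3 of 6 PTM markers in at least 25% of cells, the fewest that the naming rule allows. Their mean log2 ratio was 2.597 over the PTM markers and 1.405 over the interstitial markers. The PTM markers reached a median of 78.3% of the PTM-like level in perivascular-like cells, with a range of 43.3% to 295.9%.

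FGFs are secreted or intracellular proteins, and the secreted ones bind FGF receptors together with heparan sulphate chains at the cell surface. In the fetal testis FGF9 is known as a signal made by SCs that helps to hold the male fate of the gonad and acts on germ cells and on the surrounding mesenchyme. FGF7 and FGF10 are classical mesenchymal ligands of the epithelial splice form of FGFR2. Receptor activation runs through the RAS and MAP kinase pathway, which switches on ETS transcription factors and, as a brake on itself, Sprouty proteins.

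Promoter windows from RefSeq (GRCm38.p6), 250 bases before to 50 after a start site, were found by symbol for 8 of the 10 genes, not for Fgfr1 or Spry4. The windows of Fgf9 and Spry2 are shown, the first for the ligand that the group is named for and the second for a feedback gene with a match to the ETS core CCGGAA, marked in capitals (either strand). Fgf9 has its window at chr14:58072436-58072735 on the plus strand, and Spry2 at chr14:105896770-105897069 on the minus strand.
Fgf9: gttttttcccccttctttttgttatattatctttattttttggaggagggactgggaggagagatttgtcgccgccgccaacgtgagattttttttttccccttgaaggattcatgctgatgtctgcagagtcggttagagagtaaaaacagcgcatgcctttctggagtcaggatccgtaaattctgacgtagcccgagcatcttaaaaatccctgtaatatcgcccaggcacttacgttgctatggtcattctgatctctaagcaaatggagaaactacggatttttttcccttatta
Spry2: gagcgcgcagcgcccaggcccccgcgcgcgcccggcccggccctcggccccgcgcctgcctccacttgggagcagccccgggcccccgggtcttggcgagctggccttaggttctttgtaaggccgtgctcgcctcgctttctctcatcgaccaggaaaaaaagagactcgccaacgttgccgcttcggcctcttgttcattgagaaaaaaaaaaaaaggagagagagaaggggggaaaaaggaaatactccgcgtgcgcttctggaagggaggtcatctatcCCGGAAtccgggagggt

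The ETS core was in 2 of the 9 windows of these genes, those of Spry2 and Fgfr4, and in 14.9% of all 32851 windows. The letters AACAAT, a SOX core, and AAGGTCA, a site of the NR5A1 type, were in 0 of the 9 windows, against 10.7% and 4.72% of all windows. With 9 windows and shares this low, 0 matches does not show a lack. GGGCGG, a GC box and the last motif searched, was in 5 of the 9 windows, against 35.7% of all windows. The window of Fgf9 was 42.7% G and C and that of Spry2 62.7%. These are matches of letters in short windows and no evidence of binding. The windows of Fgf9, Fgf10 and Fgfr2 lie inside the gene spans given below, as does the Fgfr3 window at chr5:33722056-33722355. They belong to other start sites than the annotated start of the gene. The Fgfr4 window and the other Fgfr3 window span the annotated start, but are set on a start site downstream of it.

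Fgf9 (ENSMUSG00000021974, chromosome 14, 58070547 to 58112720 on the plus strand, GENCODE vM21 on GRCm38) was highest in coelomic epithelium-like cells, the layer that covers the gonad, and lower but clear in Sertoli-like cells. It stood at 66.6 CPM (57.2 to 77.1, 180 UMIs) in the coelomic epithelium-like cells and at 13.7 CPM (11.8 to 15.9, 177 UMIs) in the Sertoli-like cells. Rete testis-like cells, the epithelium that joins the cords to the excurrent ducts, had 42.0 CPM from 10 UMIs in 19 cells (20.1 to 77.2). Of these 10 UMIs 7 were in 1 cell, and only 4 of the 19 cells had any. With cells classed one by one from their markers, which put 135 cells in this class, its level was 10.9 CPM, below that of Sertoli-like cells. The coelomic epithelium-like interval lay above that of Sertoli-like cells.

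Elsewhere Fgf9 was low. It was at 2.70 CPM in PTM-like cells, 1.01 in Leydig-like cells, 0.794 in germ-like cells and 0.470 in interstitial-like cells, the last from 5 UMIs. No UMI was found in 104 perivascular-like cells, which leaves room for up to 2.88% of these cells with a UMI by the floor and 3.48% by the exact interval. The 145 coelomic epithelium-like cells, 3.79% of all cells, held 44.1% of the 408 Fgf9 UMIs, and the Sertoli-like cells 43.4%. These shares hold for the kept cells only. With no outlier filter Sertoli-like cells numbered 1300 instead of 852, and coelomic epithelium-like cells 163 instead of 145. All barcodes together held 549 Fgf9 UMIs, and their split by class was not worked out.

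The same order was seen cell by cell. A UMI of Fgf9 was found in 91 of 145 coelomic epithelium-like cells (62.8%) and in 140 of 852 Sertoli-like cells (16.4%), against 5 of 1155 interstitial-like cells (0.433%). Median depth was 15979 UMIs in the first, 14349.5 in the second and 8763 in the third class, so each cell was also thinned to 5000 UMIs. The shares were then 25.4% (18.4 to 33.5) of 138 coelomic epithelium-like cells, 5.60% (4.14 to 7.37) of 840 Sertoli-like cells and 0.184% of 1084 interstitial-like cells. A Sertoli-like cell held at most 8 UMIs of Fgf9 and a coelomic epithelium-like cell at most 7. Thinning left out 71 interstitial-like, 12 Sertoli-like and 7 coelomic epithelium-like cells with fewer than 5000 UMIs.

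Fgf10 (ENSMUSG00000021732, chromosome 13, 118669791 to 118792115) was found in other cells than SCs. Its level was 9.62 CPM (6.28 to 14.1) in coelomic epithelium-like cells and 6.87 CPM (5.38 to 8.64) in interstitial-like cells, with overlapping intervals. Leydig-like and PTM-like cells followed at 2.03 and 1.85 CPM, below the interstitial-like interval, and Sertoli-like cells had 1 UMI in 852 cells. Coelomic epithelium-like cells, which also held interstitial markers at the median given above, were thus the only class of at least 100 cells in which both Fgf9 and Fgf10 were above 5 CPM.

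Fgf7 (ENSMUSG00000027208, chromosome 2, 126034658 to 126091185) was at the limit of this library, with 28 UMIs in the kept cells. Of these 11 were in Leydig-like cells (1.86 CPM, 0.928 to 3.33), 7 in interstitial-like cells and 5 in PTM-like cells. Sertoli-like and germ-like cells had none, which leaves room for up to 0.352% and 1.2% of these cells by the floor and 0.432% and 1.46% by the exact interval.

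**Figure D1:**
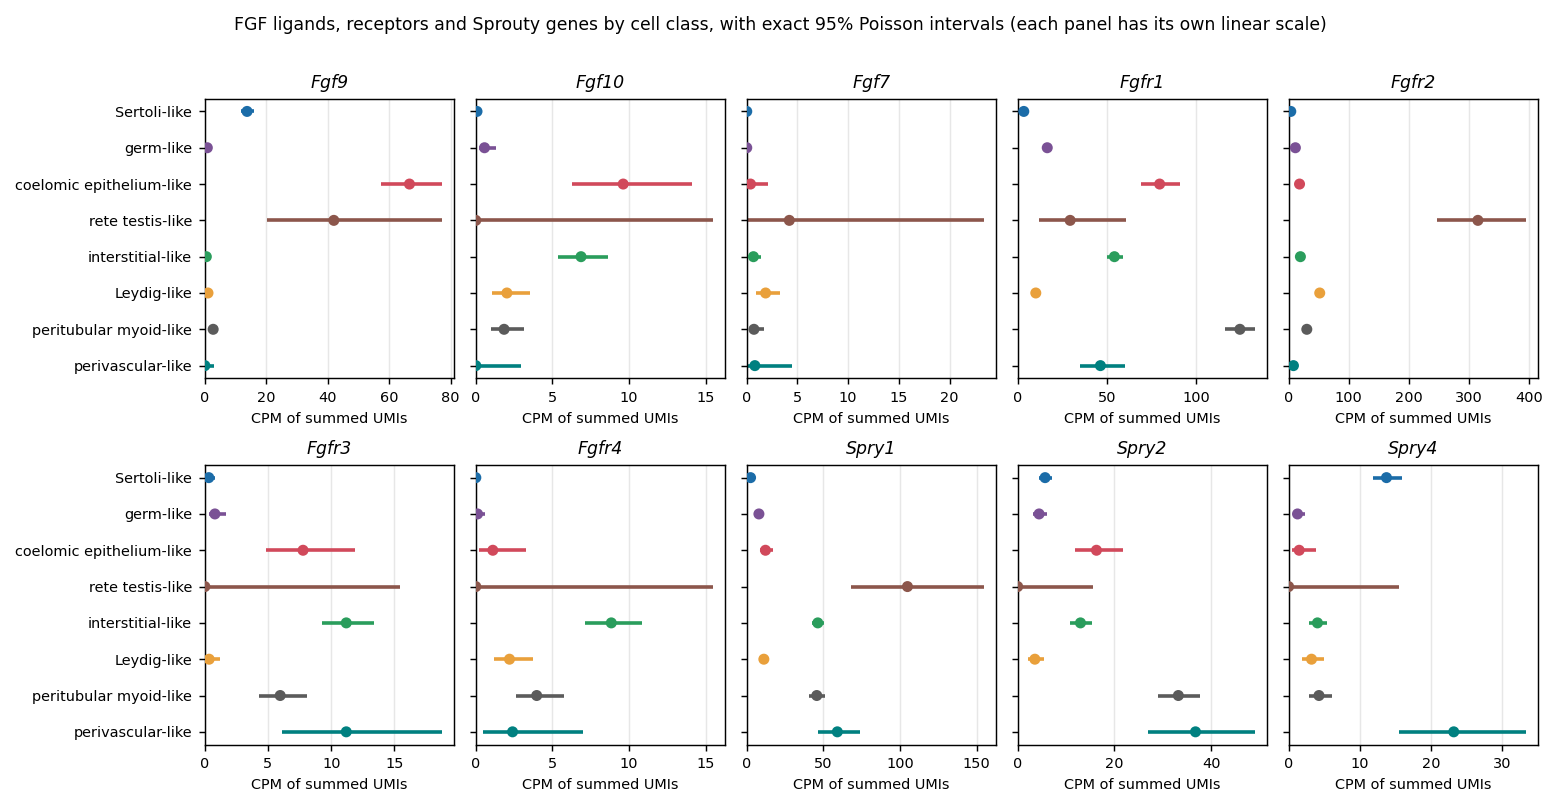
Level of each FGF gene in 8 cell classes of the control library, as CPM of summed UMIs on a linear axis of its own for each gene, with points for the level and lines for the exact 95% Poisson interval. Fgf9 was highest in the coelomic epithelium-like cells at 66.6 CPM with Sertoli-like cells at 13.7, Fgfr1 in PTM-like cells at 124.5, Fgfr2 in rete testis-like cells at 314.8, and Spry4 stood out in perivascular-like and Sertoli-like cells.

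Among the receptors, Fgfr1 (ENSMUSG00000031565, chromosome 8, 25513654 to 25575718) was highest in PTM-like cells, a class named for the muscle-like layer around the cords. Fgfr2 was highest in rete testis-like and Leydig-like cells. Fgfr1 was at 124.5 CPM (116.4 to 133.0) in PTM-like cells, 79.5 (69.3 to 90.9) in coelomic epithelium-like cells, 54.2 (49.9 to 58.8) in interstitial-like cells and 46.4 (35.2 to 59.9) in perivascular-like cells. Of these neighbours in the order only the last pair overlapped. Germ-like cells had 16.6 CPM (14.0 to 19.5) and Leydig-like cells 10.1 (7.74 to 13.1). Sertoli-like cells were lowest of all named classes at 3.41 CPM (2.48 to 4.58).

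Fgfr2 (ENSMUSG00000030849, chromosome 7, 130162451 to 133123350 on the minus strand as annotated) was at 314.8 CPM (247.6 to 394.6) in rete testis-like cells, where 17 of 19 cells (89.5%) had a UMI. Leydig-like cells followed at 51.7 CPM (46.1 to 57.9), PTM-like cells at 30.2 (26.3 to 34.6) and interstitial-like cells at 19.6 (17.0 to 22.4), with no overlap between these neighbours. Coelomic epithelium-like cells had 18.1 CPM, germ-like cells 11.2 and Sertoli-like cells 3.57 (2.61 to 4.76). The rete testis-like value rests on few cells. It was 84.1 CPM when cells were classed one by one from their markers, which put 135 cells in this class instead of 19. No rete testis-like cluster was found when doublets were removed at double the rate. In the other settings it was 225.3 to 326.1 CPM.

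Fgfr3 (ENSMUSG00000054252, chromosome 5, 33721674 to 33737068) kept to the stroma and the coelomic epithelium-like cells. Interstitial-like and perivascular-like cells each had 11.2 CPM, coelomic epithelium-like cells 7.77 and PTM-like cells 5.96, with overlap between neighbours. The PTM-like interval (4.30 to 8.06) lay below the interstitial-like one (9.27 to 13.4). The level then dropped to 0.794 CPM in germ-like cells, 0.338 in Leydig-like cells and 0.310 in Sertoli-like cells, each from 7 UMIs or fewer.

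Fgfr4 (ENSMUSG00000005320, chromosome 13, 55152640 to 55168759) was highest in interstitial-like cells at 8.84 CPM (7.15 to 10.8), with 3.97 in PTM-like cells (2.64 to 5.74) and 2.20 in Leydig-like cells. No UMI of Fgfr4 was found in 852 Sertoli-like cells, which allows a share of up to 0.352% by the floor and 0.432% by the exact interval. Germ-like cells had 1 UMI in 251 cells.

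Put together at 5000 UMIs per cell, a UMI of at least 1 receptor gene was seen in 51.7% of PTM-like cells (47.3 to 56.1), 37.7% of coelomic epithelium-like cells, 34.0% of interstitial-like cells, 28.2% of perivascular-like cells and 26.5% of Leydig-like cells. Germ-like cells had 15.4% (11.1 to 20.5) and Sertoli-like cells 2.62% (1.65 to 3.94). For the ligand genes the shares were 26.8% of coelomic epithelium-like cells, 5.60% of Sertoli-like cells and at most 3.97% in the other classes of at least 100 cells. In coelomic epithelium-like cells Fgf9 and Fgfr1 were seen together in 12 of 138 cells, where 9.13 would be expected from their separate shares. Fgf9 was seen with Fgfr2 in 3 cells beside 4.06 expected, and with Fgfr3 in 0 beside 1.775. These counts are small and no interval was computed for them, so no direction is read from them.

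RNA set free from broken cells gives UMIs in cells that do not make it. The 8 interstitial markers in Sertoli-like cells ranged from 0.587% to 10.1% of their interstitial-like level, with a median of 0.811%. Fgfr1 stood in Sertoli-like cells at 0.0630 times its interstitial-like level, Spry1 at 0.0535 times and Fgfr3 at 0.0277 times. All of these lay within that range but above its median, while Fgfr2 at 0.182 times lay above the range. The 46 Fgfr2 UMIs of Sertoli-like cells were in 26 of 852 cells, with 8 of them in 1 cell. In germ-like cells the interstitial markers reached at most 3.1% of their interstitial-like level, and Fgfr1 stood there at 16.6 CPM beside 54.2 in interstitial-like cells. Beside Fgf9 in PTM-like cells, the 8 coelomic epithelium markers were there at a median of 1.65% of their own level, with a range of 0.391% to 12.9%. Fgf9 stood there at 4.05% of its coelomic epithelium-like level, likewise within the range but above the median. The 11 SC markers stood in PTM-like cells at a median of 0.596% of their Sertoli-like level, with a range of 0.275% to 5.97%. Fgf9 was at 2.70 CPM in PTM-like cells beside 13.7 CPM in Sertoli-like cells, a share of the Sertoli-like level that lay above this range. The part of free RNA in these low values was not tested.

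**Figure D2:**
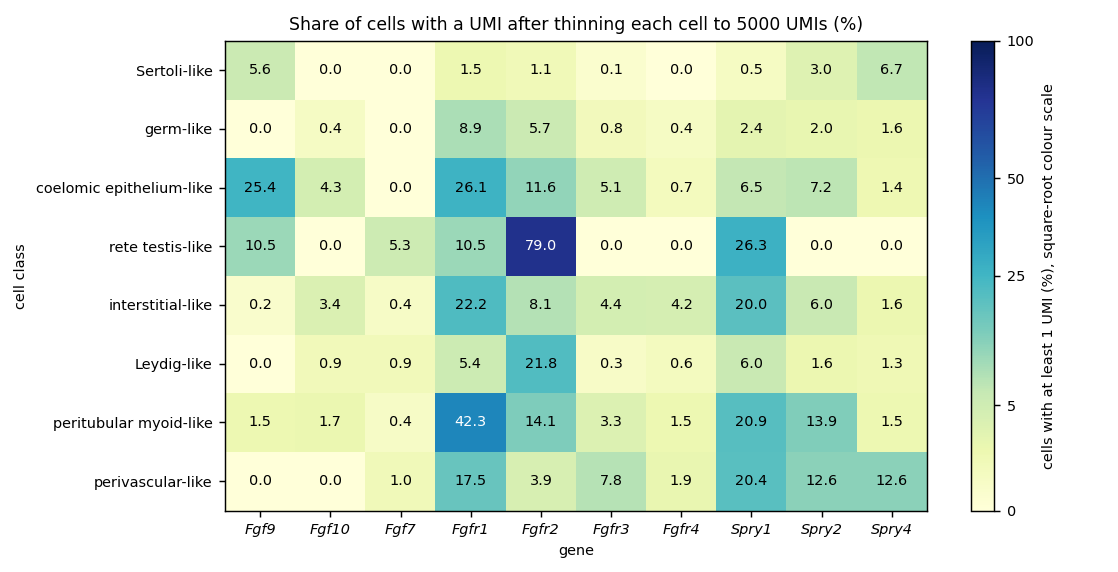
Share of cells (%) with at least 1 UMI of each gene after each cell was thinned to 5000 UMIs, by cell class, with a square-root colour scale and the share printed in each field. Fgf9 was seen in 25.4% of coelomic epithelium-like, 10.5% of the 19 rete testis-like and 5.60% of Sertoli-like cells. Fgfr1 was seen in 26.1% of coelomic epithelium-like cells and 1.55% of Sertoli-like cells. Spry4 was at 6.67% in the Sertoli-like row. Over all rows the share of Fgfr2 was highest in the rete testis-like cells and that of Fgfr1 in PTM-like cells.

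The Sprouty genes, whose products damp signalling from receptor tyrosine kinases, did not share 1 pattern. Spry1 (ENSMUSG00000037211, chromosome 3, 37639947 to 37644598) was at 104.9 CPM (67.9 to 154.9) in rete testis-like cells, 59.1 (46.4 to 74.2) in perivascular-like cells, 46.4 (42.4 to 50.7) in interstitial-like cells and 45.7 (40.8 to 51.0) in PTM-like cells, each interval overlapping the next. The rete testis-like interval lay above those of interstitial-like and PTM-like cells. With cells classed one by one, which gave 135 rete testis-like cells, the rete testis-like level of Spry1 was 47.5 CPM. Coelomic epithelium-like, Leydig-like and germ-like cells lay between 12.2 and 7.94 CPM, and Sertoli-like cells at 2.48 (1.70 to 3.50).

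Spry2 (ENSMUSG00000022114, chromosome 14, 105891947 to 105896819 on the minus strand) was highest in perivascular-like cells at 36.8 CPM (26.9 to 49.0) and PTM-like cells at 33.2 (29.1 to 37.8), which overlapped. Coelomic epithelium-like cells had 16.3 CPM and interstitial-like cells 13.0, both below the PTM-like interval. Sertoli-like cells had 5.66 CPM (4.44 to 7.12), germ-like cells 4.42 and Leydig-like cells 3.55.

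Spry4 (ENSMUSG00000024427, chromosome 18, 38586247 to 38601415 on the minus strand) was the only Sprouty gene called higher in Sertoli-like than in interstitial-like cells. It stood at 13.7 CPM (11.8 to 15.9) in Sertoli-like cells, from 177 UMIs, by count the same number as for Fgf9. In perivascular-like cells it was at 23.2 CPM (15.5 to 33.3). These intervals overlapped only between 15.5 and 15.9, and no ratio was worked out for this pair. PTM-like cells had 4.26 CPM, interstitial-like cells 4.05 and Leydig-like cells 3.21, and coelomic epithelium-like and germ-like cells 1.5 and 1.2. At 5000 UMIs per cell it was seen in 6.67% (5.08 to 8.57) of Sertoli-like cells and 1.57% of interstitial-like cells.

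Leydig-like cells were made up of 2 clusters that differed in these genes. Cluster 8, with 132 cells, was led by steroidogenic genes such as Cyp11a1 and Star. Cluster 6, with 188 cells, was led by Nppc and Vsnl1 and had no Leydig marker among its 10 leading genes, though all 5 were in at least 25% of its cells. Spry1 was at 24.3 CPM (18.7 to 31.1) in cluster 6 and at 0.903 CPM, from 3 UMIs, in cluster 8 (0.186 to 2.64). Fgfr1 was at 15.1 CPM (10.7 to 20.6) in cluster 6 and 6.32 (3.91 to 9.66) in cluster 8. All 13 Fgfr4 UMIs of Leydig-like cells were in cluster 8. Fgfr2 was at 45.2 CPM (37.3 to 54.1) and 56.9 CPM (49.1 to 65.6), with overlap.

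An unnamed cluster of 90 cells, cluster 10, whose leading genes included Emcn, Gdf10 and Foxp2, held high levels of Fgfr1 and Fgfr2. Fgfr1 was there at 101.1 CPM (81.1 to 124.5) and Fgfr2 at 96.5 CPM (77.0 to 119.5), the latter above all named classes but the rete testis-like cells. Spry2 was at 41.4 CPM (29.0 to 57.3). Fgf9 had 3 UMIs, all in 1 cell. All 8 interstitial markers were in at least 25% of these cells, and the name was withheld because an endothelial marker stood among the leading genes and no interstitial one did.

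**Figure D3:**
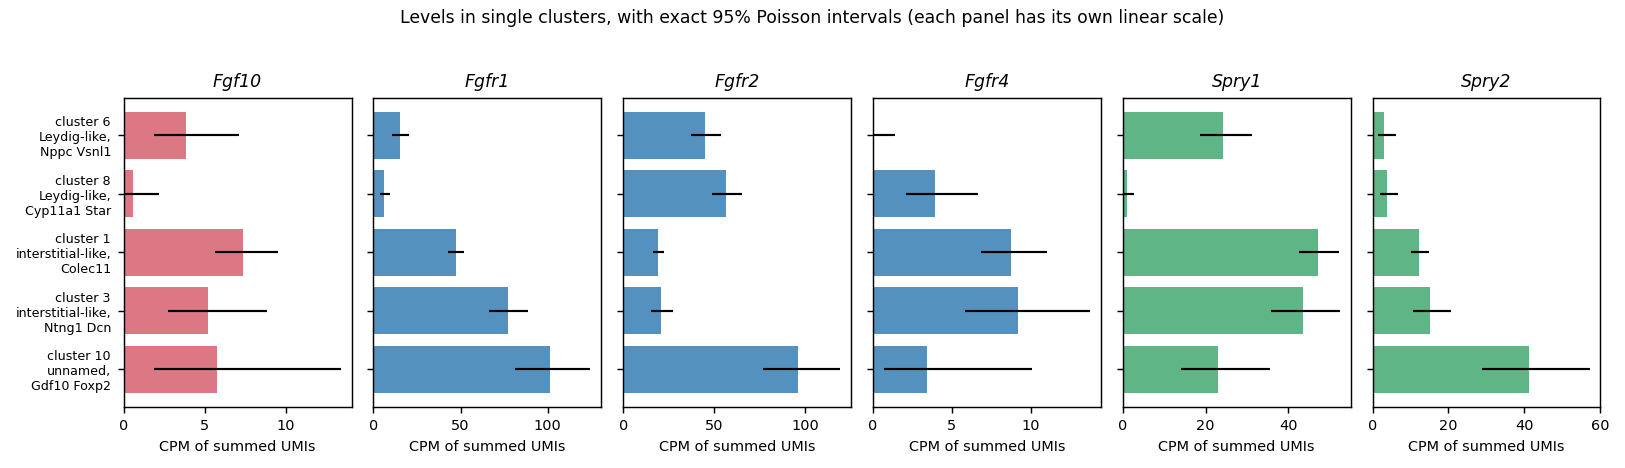
Levels of 6 genes in the Leydig-like clusters 6 and 8, the interstitial-like clusters 1 and 3 and the unnamed cluster 10, as bars of CPM of summed UMIs from 0 with exact 95% Poisson intervals. Spry1 was at 24.3 CPM in cluster 6 and 0.903 in cluster 8, and cluster 10 had the highest bars of Fgfr1, Fgfr2 and Spry2 among these 5 clusters.

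How far the genes differed between pairs of classes was then counted by 1 rule for all genes: a ratio of at least 2-fold between levels, with at least 10 UMIs in both classes together. Between Sertoli-like and interstitial-like cells all 9 genes that could be judged differed, 2 higher and 7 lower in Sertoli-like cells, while over all 13317 genes 18.8% were higher and 18.0% lower. Fgf9 was 29.2-fold higher (12.3 to 91.0) and Spry4 3.39-fold higher (2.42 to 4.85). Fgfr1 was 15.9-fold lower (11.7 to 22.1), Fgfr2 5.48-fold (3.97 to 7.72), Fgfr3 36.1-fold and Spry1 18.7-fold lower. Fgfr4, with no UMI in Sertoli-like cells, was at least 30.3-fold lower by the exact interval, and 38.0-fold lower when reckoned at the floor of 3 UMIs. Fgf10 was 88.6-fold lower from 1 UMI against 73 (15.4 to 3545), and Spry2 2.29-fold lower (1.71 to 3.09). The log2 ratio of Spry2 was -0.97 with doublets removed at double the rate, short of 2-fold.

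Germ-like cells held more Fgfr1, Fgfr2 and Spry1 than Sertoli-like cells and less Fgf9 and Spry4. Fgfr4, with 1 UMI against 0, was not judged. Of 7 genes judged 4 were higher and 2 lower, against 21.9% and 32.0% of 13567 genes. Fgfr1 was 4.85-fold (3.44 to 6.96), Fgfr2 3.15-fold (2.20 to 4.57) and Spry1 3.20-fold (2.08 to 5.02) higher in germ-like cells. The fourth, Fgfr3, rested on 7 against 4 UMIs with an interval that included 1 (0.651 to 11.9), and its log2 ratio fell to 0.09 when no doublets were removed. Fgf9 was 17.3-fold lower (8.22 to 43.6) and Spry4 11.0-fold lower (6.0 to 22.5), from 11 UMIs against 177. Germ-like cells held a median of 36155 UMIs, and CPM is per UMI, not per cell.

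The other comparisons share the interstitial-like cells, so their values are given side by side. In Leydig-like cells 3 of 10 genes were higher and 6 lower, against 11.2% and 20.2% of 12747 genes. Fgfr2 was 2.64-fold higher (2.21 to 3.17), Fgfr1 5.34-fold lower (4.09 to 7.09), Fgfr3 33.1-fold lower from 2 UMIs against 119 (8.97 to 276.6) and Spry1 4.16-fold lower. The Spry1 ratio pools unlike clusters, with 24.3 CPM in cluster 6 and 0.903 CPM in cluster 8, beside 46.4 CPM in interstitial-like cells. The calls for Fgf9 (6 against 5 UMIs) and Fgf7 (11 against 7) had intervals that included 1. The log2 ratio of Fgf9 was 0.95 at resolution 1.2 and turned from 1.11 to -0.79 with cells classed one by one and to -0.30 as a mean over single cells. That of Fgf7 went from 1.5 to 0.10 when log-normalized values were clustered.

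In PTM-like cells 3 of 10 genes were higher and 2 lower, against 6.03% and 7.56% of 12727 genes. Fgfr1 was 2.30-fold higher (2.07 to 2.56), Spry2 2.56-fold higher (2.06 to 3.18) and Fgf9 5.73-fold higher from 19 against 5 UMIs (2.07 to 19.6), while Fgf10 was 3.72-fold and Fgfr4 2.23-fold lower. With cells classed one by one 0 genes passed 2-fold, with a log2 ratio of 0.45 for Fgfr1 and -0.52 for Fgf9. When log-normalized values were clustered 3 passed, with Fgfr1 at a log2 ratio of 0.55 and Fgfr4 at -0.76, both short of 2-fold. In these settings, in that order, PTM-like cells numbered 295 and 457 and interstitial-like cells 764 and 338. The part of either class in the change was not tested.

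In coelomic epithelium-like cells 1 of 9 genes was higher and 3 lower, against 10.0% and 11.5% of 12568 genes. Fgf9 was 142-fold higher (59.6 to 441.3). Fgfr4 was 7.97-fold lower from 3 UMIs, Spry1 3.80-fold lower (2.67 to 5.58), and Spry4 2.73-fold lower from 4 UMIs with an interval that reached 1 (0.993 to 10.5). The log2 ratio of Spry4 went from -1.45 to -0.79 when log-normalized values were clustered and to -0.61 with cells classed one by one, both short of 2-fold. Fgf10, Fgfr1, Fgfr2, Fgfr3 and Spry2 were within 2-fold.

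**Figure D4:**
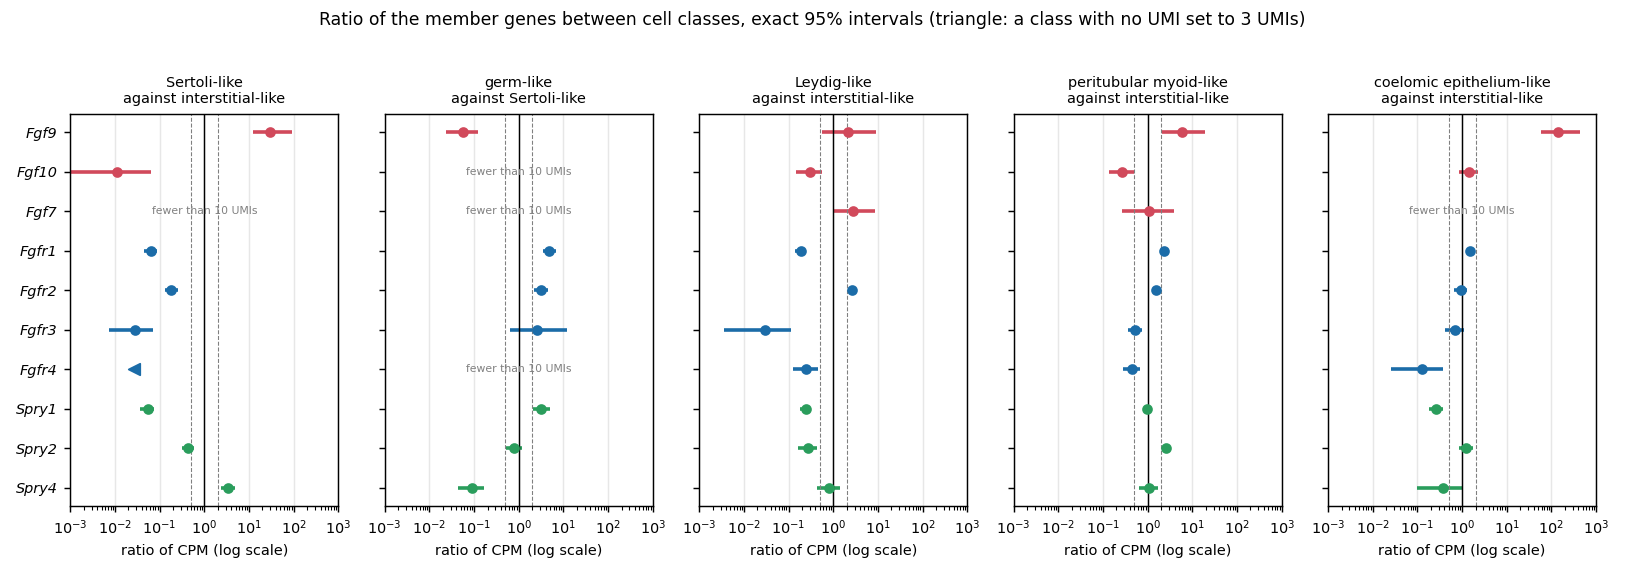
Ratio of CPM of each gene between pairs of cell classes on a log axis, with exact 95% intervals as lines (cut at 0.001), dashed lines at 2-fold, and a triangle at the floor of 3 UMIs for Fgfr4, which had no UMI in Sertoli-like cells. Fgf9 lies to the right in Sertoli-like (29.2-fold) and coelomic epithelium-like cells (142-fold), and all 4 receptor genes lie to the left in Sertoli-like against interstitial-like cells.

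Of 61 other genes of the pathway listed for this purpose, 46 could be judged between Sertoli-like and interstitial-like cells, of which 10 were higher and 14 lower. That is 21.7% and 30.4% of the list, beside 18.8% and 18.0% of all genes. The median log2 ratio of the list was -0.16, beside 0.05 over all genes judged (with 0.5 UMI added to each sum). Etv4, an ETS factor induced by FGF signalling, was 26.7-fold higher in Sertoli-like cells (8.85 to 131.5, 97 against 3 UMIs), Sdc4, a cell-surface heparan sulphate proteoglycan, 15.1-fold higher (13.2 to 17.4) and Fgf18, a secreted ligand, 8.64-fold higher (5.51 to 14.2). Sulf2, an enzyme that takes sulphate groups off heparan sulphate, was 73.7-fold lower (52.6 to 106.7), Sdc3 34.3-fold and Sdc1 27.2-fold lower. Chosen after their values were seen, the target genes Etv5 and Dusp6 stood at 27.2 and 28.5 CPM in Sertoli-like cells and at 4.70 and 6.49 CPM in interstitial-like cells, the same direction as Spry4. Of the 13 feedback and target genes judged, 4 were higher, 2 lower and 7 within 2-fold.

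In germ-like against Sertoli-like cells 9 of the 46 listed genes judged were higher and 23 lower. That is 19.6%, near the 21.9% of all genes, and 50%, beside 32.0% of all genes, with a median log2 ratio of -0.98 beside -0.22 over all genes. Fgf8, a ligand, was 66.3-fold higher (22.2 to 325.4, 136 against 3 UMIs), Dusp4, a MAP kinase phosphatase, 10.5-fold higher, and Fgf21 5.85-fold higher from 8 against 2 UMIs. Fgf11, an intracellular FGF, had no UMI in germ-like cells and was at least 6.89-fold lower by the exact interval (8.89-fold at the floor), Fgf18 was 50.2-fold lower from 3 UMIs (16.9 to 245.1) and the proteoglycan gene Gpc6 18.9-fold lower from 5 UMIs. Among the 17 heparan sulphate genes 3 were higher and 11 lower in germ-like cells, or 17.6% and 64.7% beside 21.9% and 32.0% of all genes.

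In Leydig-like against interstitial-like cells 5 of 46 listed genes were higher and 18 lower. That is 10.9%, near the 11.2% of all genes, and 39.1%, beside 20.2% of all genes, with a median log2 ratio of -0.84 beside -0.22 over all genes. Dusp4 was 8.51-fold (5.15 to 14.8), Gpc4 5.78-fold and Dusp5 3.69-fold higher. Il17rd, an inhibitor of FGF receptor signalling, was 20.7-fold lower from 5 UMIs (8.71 to 64.5). Fgf1 and Fgf22 had no UMI in Leydig-like cells, against 12 and 10 in interstitial-like cells, which makes them at least 1.55-fold and 1.25-fold lower by the exact interval (2.23-fold and 1.85-fold at the floor).

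In PTM-like against interstitial-like cells 6 of 47 were higher and 7 lower, or 12.8% and 14.9% beside 6.03% and 7.56% of all genes. The largest ratios were those of Sulf1 (7.93-fold, 6.08 to 10.5), Etv4 (6.54-fold, 13 against 3 UMIs) and Flrt1 (2.95-fold) among the higher genes, while Hs6st2, a heparan sulphate sulphotransferase, was 5.01-fold, Fgf13 4.68-fold and Etv1 4.22-fold lower. The median log2 ratio of the list was 0.02, beside -0.03 over all genes. In coelomic epithelium-like against interstitial-like cells 6 of 45 were higher and 7 lower, or 13.3% and 15.6%, close to the 10.0% and 11.5% of all genes, with a median of -0.06 beside -0.01. Sulf1 was 33.0-fold (25.5 to 43.2), Flrt1, a membrane protein that binds FGF receptors, 14.0-fold and Fgf18 12.7-fold higher (7.71 to 21.9). Sdc3 was 13.4-fold and Hs6st2 4.90-fold lower, and Dusp4 4.83-fold lower from 1 UMI with an interval that included 1. Fgf18 was thus, like Fgf9, called higher than in interstitial-like cells in both Sertoli-like (17.1 CPM) and coelomic epithelium-like cells (25.2 CPM).

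Genes with the pattern most like that of each FGF gene were sought over the 9 classes of at least 30 cells by Pearson's r of log2(CPM + 5), among 9507 genes of at least 20 CPM in 1 class. This left out the 19 rete testis-like cells, in which Fgfr2 and Spry1 were highest. The points share 1 library, so r is a description. For Fgf9 these were Krt7, a keratin of simple epithelia that is also among the coelomic epithelium markers (r = 0.975), Podxl (0.963) and Zfp185 (0.948). For Fgfr1 they were Palld (0.977), Nfix and Hmcn1, for Fgfr2 Sfrp1 (0.955), Psmd11 and Galk1, for Fgfr3 Tns2 (0.974), Pear1 and Wdr86, and for Fgfr4 Sapcd1 (0.988), Arhgap20 and Col25a1. For Fgf10 they were Lamc3 (0.934), Tada1 and Ado. Spry1 was nearest to Klhl13 (0.979), Tgfb1i1 and Cd248, Spry2 to Postn (0.972), Pde3a and Ddr2, and Spry4 to Rasl12 (0.957), Klf9 and Dmd. Fgf7 had fewer than the 50 UMIs set for this.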

How the data were processed

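Single-cell RNA of testes was measured in 1 control library with the 10x v3 3′ kit. The authors deposited raw UMI counts for each gene in each barcode, from Cell Ranger and the mm10 genome with YFP added. The matrix header and the submitters' processing notes name version 3.1.0, the notes also 3.0.2, and the methods another one. The FGF genes and the lists were chosen with earlier results of these data known, and so was the scale on which clusters are named.

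Of 5421 barcodes, 372 with fewer than 200 genes were left out. They held 1 UMI of the 10 genes. Doublets were scored, as DoubletFinder does, from the neighbours of each cell that were simulated doublets, and 204 barcodes (4.04%) removed. Another 1022 barcodes beyond 3 median absolute deviations on UMIs, genes, mitochondrial or ribosomal share were removed. The 15105 genes in at least 10 cells were clustered with Seurat 5.3.0 and sctransform 0.4.2 in R 4.3.3, with 3000 variable genes less 19 FGF genes, 30 components and resolution 0.8. A cluster took the name of the marker list with the highest mean log2 ratio against all other cells (5 CPM added) where that was at least 1 and at least 3 markers were in 25% of cells. It stayed unnamed if shallow without a marker among its 10 leading genes, or if another list had more there.

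Sums, thinning and intervals used Python 3.11.15, numpy 2.4.6 and scipy 1.17.1, and were tested on simulated data. All 10 genes are described, and of the other pathway genes the 3 with the largest ratio in each direction and comparison are named. Exact Poisson, Clopper-Pearson and conditional binomial intervals are at 95%. The alternatives were 5 deviations or no outlier filter, no doublet removal or double the rate, FGF genes kept, resolutions 0.4 and 1.2, log-normalized values, classes set cell by cell, means over single cells, thinning to 3000 UMIs, the share expected over all draws, and no minimum of UMIs.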

Additional observations from a re-analysis of the deposited data

How the results depend on the processing

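The level of Fgf9 in Sertoli-like cells stayed between 13.4 and 14.1 CPM under 10 alternatives, and its share at 5000 UMIs between 5.49% and 6.60% under 10, all within the counting interval, while thinning to 3000 UMIs gave 4.47%. The number of FGF genes past 2-fold was 8 to 9 for Sertoli-like against interstitial-like cells, 5 to 6 for germ-like against Sertoli-like, 7 to 10 for Leydig-like against interstitial-like and 3 to 5 for coelomic epithelium-like against interstitial-like cells. For PTM-like against interstitial-like cells it went from 5 to 3 with log-normalized values and to 0 with cells classed one by one. The cause was not tested. The log2 ratio of Fgf9 turned for Leydig-like against interstitial-like cells, from 1.109 to -0.785 with cells classed one by one and to -0.305 as a mean over single cells, and for PTM-like against interstitial-like cells from 2.519 to -0.524 with cells classed one by one. Of 700 levels in classes of at least 100 cells 650 stayed within their counting interval, and of 436 log2 ratios 387 did. With no minimum of UMIs the share of all genes past 2-fold in either direction rose for each pair of classes. Against interstitial-like cells it rose from 13.6% (1730 of 12727) to 24.5% (3829 of 15614) for PTM-like cells. It rose from 21.6% (2709) to 33.2% (5134) for coelomic epithelium-like and from 31.3% (3995) to 39.7% (6200) for Leydig-like cells. For Sertoli-like cells it went from 36.7% to 44.2%, and for germ-like against Sertoli-like cells from 53.9% to 59.6%. The first share of each pair is that of all genes under the main rule, to set beside the counts of FGF genes. No paired analysis was possible because there is 1 library, and for the same reason no replicate could be left out. Depth limits Fgf7, and Fgfr4 outside the interstitial-like cells. All values of rete testis-like cells are limited by the number of these cells, 19, and by how cells were classed.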
